A study of Sus scrofa with 12 samples.

Results

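The genes described here are 10 ligands, receptors and targets of the Notch pathway, namely the receptors NOTCH1, NOTCH2, NOTCH3 and NOTCH4, the ligands JAG1, JAG2 and DLL4, and the target genes HES1, HEY1 and HEYL. They were chosen by gene symbol in the table of coding genes, where all 10 of them were found among 21674 genes. Testis RNA was sequenced from Hezuo (HZ) boars, a breed known for early puberty, and Landrace (LC) boars, which served as the comparison breed. Ha denotes HZ boars at 30 days of age, Hb HZ boars at 120 days, La LC boars at 30 days and Lb LC boars at 120 days, and each group held 3 libraries from castrated testes. All 12 libraries were made from whole testis after removal of ribosomal RNA. The total estimated count per library ranged from 17165519 in Hb3 to 23758931 in Ha1.

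Notch signalling works between touching cells: a membrane-bound ligand of the Jagged or Delta-like family binds a Notch receptor on the neighbouring cell, the receptor is cut by ADAM proteases and gamma-secretase, and its freed intracellular part enters the nucleus and acts with RBPJ on target genes. The best known targets are the HES and HEY genes, which encode transcriptional repressors. In the testis the pathway is known from blood vessels, from Leydig cell progenitors and from the contact of germ cells with Sertoli cells.

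Levels are given as CPM, counts scaled to library size with TMM factors, when a gene is compared between libraries, and as the deposited FPKM, which is per length, when genes are compared with each other. A gene was called different when its edgeR adjusted p was under 0.05 and its absolute log2 fold change was over 1. Fold changes are the later named group over the earlier named group, so that a negative value in Ha vs Hb is a lower level in Hb.

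The tissue was checked against markers of its cell types. The spermatid markers, 10 of 10 in the table and led by PRM1 with a mean of 1673 FPKM, summed to 4.99, 5.54 and 6.47 CPM in Ha, 6522, 5787 and 8230 in Hb, 8.87, 7.72 and 4.43 in La, and 4192, 3451 and 3153 in Lb. The 8 of 8 spermatocyte markers, led by PIWIL1 at 42.3 FPKM, summed to 31.8, 35.6 and 19.9 CPM in Ha, 783, 676 and 651 in Hb, 16.1, 14.1 and 12.7 in La, and 502, 485 and 494 in Lb. Both sums were far lower at 30 than at 120 days in each breed. At 30 days spermatocyte transcripts were present, and SYCP1, SYCP2, HORMAD1 and PIWIL1, 4 of 8, were called lower in La than in Ha. Among the spermatid markers, a count of 0 was found for PRM2 in La1 and La3, for TNP1 in Ha2, Ha3, La2 and La3, for ACRV1 in Ha3, for AKAP4 in Ha1, and for SPACA3 in Ha1, Ha3, Hb1, La3 and Lb2. The 11 of 11 spermatogonial markers, led by DDX4 at 64.4 FPKM, summed to 369, 363 and 304 CPM in Ha, 857, 820 and 817 in Hb, 223, 222 and 231 in La, and 700, 638 and 657 in Lb. The rise of the sum was not shared by most of the list: 6 of 11 were called lower and 3 higher in Hb, with a median log2 fold change of -1.01, and 5 of 11 lower and 4 higher in Lb, with a median of -0.53. DDX4 alone rose from 19.8, 22.7 and 19.2 CPM in Ha to 629, 511 and 570 in Hb. NANOS2 was at 0 in Hb1 and Lb2, and STRA8 at 0 in La2.

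The summed levels of the somatic marker lists were lower at 120 days, although single markers differed. The 7 of 7 endothelial markers, led by VWF at 30.1 FPKM, summed to 739, 744 and 676 CPM in Ha, 191, 332 and 206 in Hb, 869, 690 and 830 in La, and 338, 529 and 302 in Lb, and EMCN was at 0 in Hb2 and La3. The 5 of 5 pericyte markers, led by RGS5 at 12.8 FPKM, summed to 160, 131 and 152 CPM in Ha, 50.0, 42.8 and 33.3 in Hb, 160, 126 and 161 in La, and 80.6, 88.4 and 84.0 in Lb. For both vascular lists the 30-day libraries lay above all 120-day libraries of the same breed. The 10 of 10 peritubular and stromal markers, led by COL3A1 at 359 FPKM, summed to 4730, 4585 and 4508 CPM in Ha, 607, 354 and 255 in Hb, 6906, 6179 and 7611 in La, and 3083, 3007 and 2570 in Lb. The 8 of 8 Sertoli markers, led by INHA at 344 FPKM, summed to 1269, 1209 and 1664 CPM in Ha, 405, 579 and 467 in Hb, 2641, 3212 and 2914 in La, and 604, 753 and 640 in Lb. The stromal sum was thus lowest in Hb, and the Sertoli sum was highest in La. Of the mean Sertoli sum in La, 2922 CPM, INHA held 1455 and AMH 687. Only 4 of 8 Sertoli markers were called lower in Hb (AMH, GATA4, INHA and DHH) and 4 of 8 in Lb (AMH, FSHR, GATA4 and INHA), with 0 called higher. Against its sum, the stromal marker ACTA2 was called higher in Lb, at 245, 246 and 356 CPM beside 109, 95.5 and 117 in La, and DES and the pericyte marker KCNJ8 were not called in La vs Lb, at log2 fold changes of 0.37 and 0.08. The 5 of 5 macrophage markers, led by CSF1R at 6.95 FPKM, summed to 124, 101 and 106 CPM in Ha, 17.4, 20.1 and 10.7 in Hb, 122, 107 and 115 in La, and 21.3, 37.8 and 35.9 in Lb. CPM is a share of each library. In whole testis, fewer cells of a type, less RNA per cell and more RNA from other cell types cannot be told apart. The study's histology counted more Sertoli cells at 120 than at 30 days in both breeds, while the Sertoli sum was lower.

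Library Hb1 stood apart from the other libraries of its group in most Leydig markers. The 7 of 7 Leydig markers, led by INSL3 at 1536 FPKM, summed to 4065 CPM in Hb1 but to 331 and 268 in Hb2 and Hb3, beside 10083, 9583 and 8748 in Ha, 13672, 9323 and 11208 in La, and 4921, 7415 and 3085 in Lb. The testosterone synthesis gene CYP17A1 was at 1444 CPM in Hb1 and at 21.2 and 19.3 in Hb2 and Hb3. Other genes of the list did not follow: HSD17B3 was lowest in Hb1, at 93.1 CPM beside 138 and 151, and HSD3B1 was at 29.0, 19.6 and 28.1 in Hb1, Hb2 and Hb3. Over all genes it was Hb2 that lay furthest from the rest of its group, with a chi-square per degree of freedom of 90.3 against Hb1 and 56.7 against Hb3, beside 39.7 between Hb1 and Hb3. Without Hb2, 7 Notch genes were called in Ha vs Hb, with NOTCH4 gained and HES1 lost, beside 9015 of 16934 tested genes. In Hb vs Lb 0 Notch genes were called without Hb2, beside 1029 of 16497 tested genes, against 628 genes with it. In the interaction 1 was called without Hb2, beside 1242 of 17593 tested genes. Fold changes of the Notch genes in Ha vs Hb, and of most other pathway genes named there, are also given without Hb1.

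Between 30 and 120 days, the Notch receptors, JAG1 and the target genes were mostly lower and JAG2 was higher, in both breeds. In Ha vs Hb, 6 of the 10 genes were called lower in Hb (NOTCH2, NOTCH3, JAG1, HES1, HEY1 and HEYL), where 23.2% of 16548 tested genes were, and JAG2 was called higher, as were 28.2% of all. In La vs Lb, 5 of the 10 were called lower in Lb (NOTCH2, NOTCH3, NOTCH4, JAG1 and HEY1), against 20.1% of 16637 tested genes, and JAG2 was again called higher, as were 27.5% of all. All 10 genes passed the filter on low counts in every comparison. The median log2 fold change of the 10 genes was -1.24 between Ha and Hb, beside -0.02 for all tested genes, and -0.90 between La and Lb, beside 0.01. With the adjusted p alone and no minimum fold change, all 10 passed in each age comparison, but so did 68.9% of all genes for HZ and 70.0% for LC. Without Hb1, 8 of the 10 were called in Ha vs Hb, with DLL4 added at a log2 fold change of -1.03. In the same fit 8279 of 16908 tested genes were called. The other values without Hb1 were -0.80 for NOTCH1, -1.12 for NOTCH2, -1.97 for NOTCH3, -0.56 for NOTCH4, -1.57 for JAG1, 1.78 for JAG2, -1.57 for HES1, -1.48 for HEY1 and -1.89 for HEYL. The endothelial, pericyte, stromal and Sertoli marker sums were lower at the same age, and their part in these results was not tested.

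**Figure D1:**
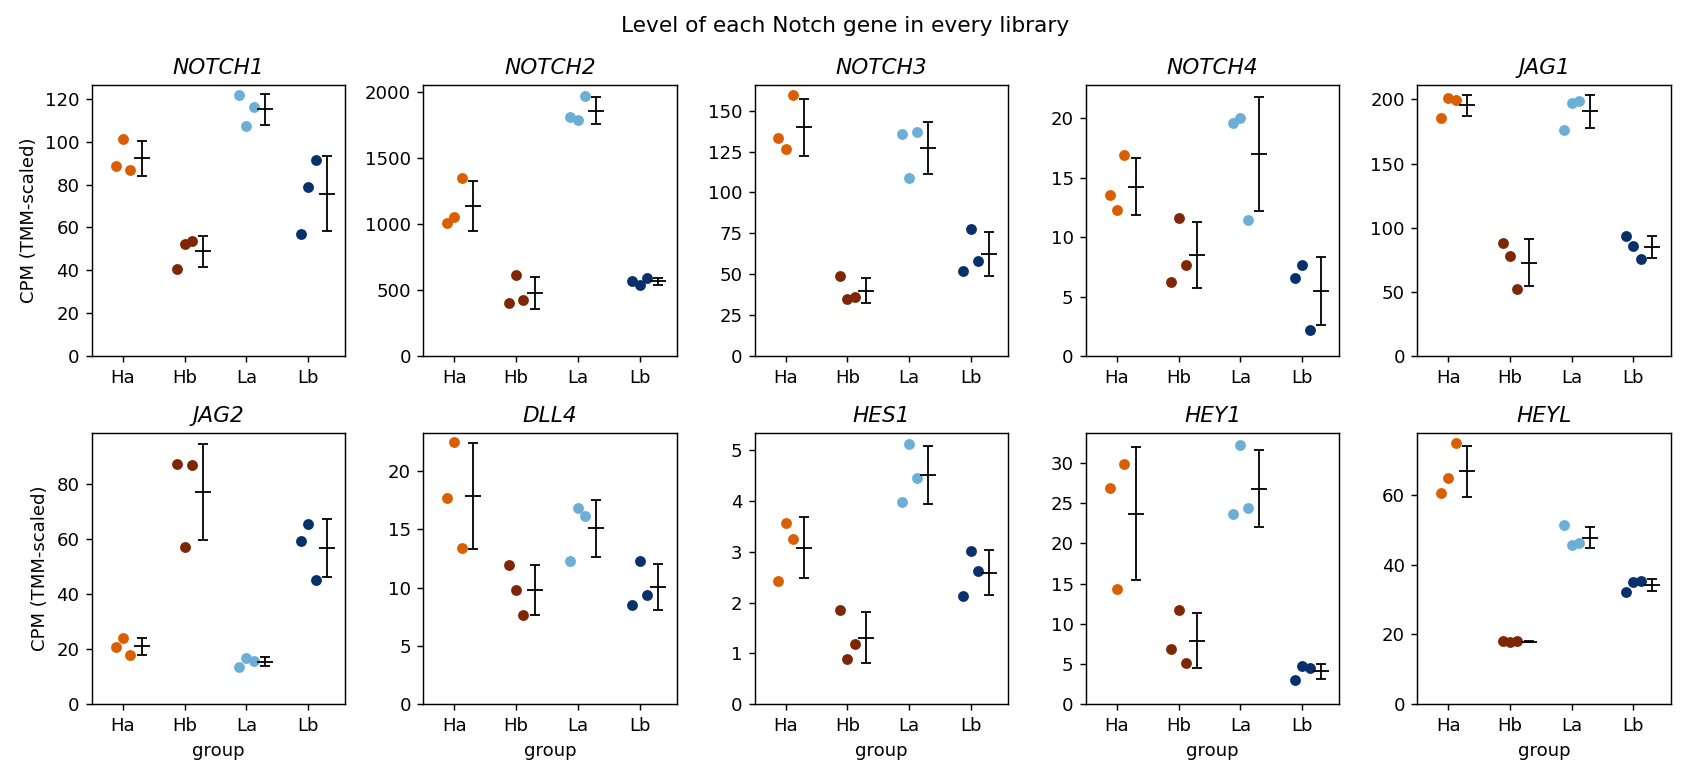
Level of each of the 10 Notch genes in CPM (TMM-scaled, linear axes that start at 0) in the 12 libraries, with points for libraries and a bar for the group mean and SD beside them. JAG2 is higher in every 120-day library than in the 30-day libraries of its breed, and NOTCH2 is lower in all 120-day libraries.

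Scaling affected these comparisons. With library totals in place of TMM, the median log2 fold change of all genes moved from -0.02 to -0.32 in Ha vs Hb, from 0.01 to -0.16 in La vs Lb and from 0.02 to 0.17 in the interaction. Higher genes made up 54.8% of the calls in Ha vs Hb with TMM, 44.1% with library totals and 42.3% for log2(FPKM + 1). Taken relative to the shifted median, NOTCH2 was at -1.21, JAG1 at -1.41, HEYL at -1.88 and JAG2 at 1.88 in Ha vs Hb with library totals. Of the 10 genes, none changed direction in either age comparison under any scaling or unit tried. All 10 were called in Ha vs Hb with library totals, where 9018 of 16548 tested genes were called. For log2(FPKM + 0.1) all 10 were called as well, beside 9331 of 16548 genes. The genes gained were NOTCH1, NOTCH4 and DLL4. Relative to the shifted median they were at -0.89, -0.71 and -0.85 with library totals, short of the fold minimum.

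The receptors span the membrane and are cut on binding a ligand. NOTCH2 (gene ID 100153369, Sscrofa11.1 chromosome 4, 100951522 to 101152348), a receptor with broad expression, was at 1006, 1054 and 1353 CPM in Ha, 402, 617 and 422 in Hb, 1816, 1792 and 1975 in La, and 572, 539 and 590 in Lb. The 30-day libraries lay well above all 120-day libraries, the LC libraries were the highest at 30 days, and Hb2 was the highest library of Hb. NOTCH2 fell by 1.25 on the log2 scale in Ha vs Hb (SE 0.21, edgeR adjusted p = 0.00146) and by 1.70 in La vs Lb (SE 0.10, edgeR adjusted p = 2.1e-06). Without Hb1 the value for Ha vs Hb was -1.12.

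NOTCH3 (gene ID 102158881, chromosome 2, 62364507 to 62402348), the receptor of vascular smooth muscle and pericytes, was at 133, 127 and 159 CPM in Ha, 49.1, 35.1 and 36.0 in Hb, 136, 109 and 137 in La, and 52.1, 77.6 and 58.1 in Lb. The ages did not overlap in either breed. It fell by 1.80 on the log2 scale in Ha vs Hb (SE 0.18, edgeR adjusted p = 0.000115) and by 1.01 in La vs Lb (SE 0.17, edgeR adjusted p = 0.000765). The second value lies at the fold minimum, and the call was lost without La1, La3, Lb1 or Lb3, at log2 fold changes of -0.97, -0.95, -0.88 and -0.96, and in DESeq2, at -0.98. The end of NOTCH3 overlaps another coding gene, LOC100628051, in the annotation, so reads there could belong to either.

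NOTCH4 (gene ID 100144522, chromosome 7, 24231293 to 24256281), a receptor known mainly from endothelium, was at 13.6, 12.2 and 16.9 CPM in Ha, 6.22, 11.6 and 7.63 in Hb, 19.6, 20.0 and 11.5 in La, and 6.53, 7.68 and 2.24 in Lb. The groups of each breed were close to each other without overlapping, and Lb3 was the lowest library. It fell by 1.62 on the log2 scale in La vs Lb (SE 0.42, edgeR adjusted p = 0.00796), while the log2 fold change in Ha vs Hb was -0.75 (SE 0.27, edgeR adjusted p = 0.0408), short of the fold minimum. With a library left out, that adjusted p was 0.05 or more in 5 of 6 edgeR fits, at up to 0.127 and at 0.1 without Hb1, and the gene was called only without Hb2, at -1.07. Its estimated counts were not whole numbers in any of the 12 libraries, so part of its reads may be shared with another feature.

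NOTCH1 (gene ID 110258061, on a sequence not placed on a chromosome), the receptor required in vessel formation and T cells, was at 88.5, 101 and 86.8 CPM in Ha, 40.7, 52.1 and 53.7 in Hb, 122, 107 and 116 in La, and 57.0, 78.7 and 91.6 in Lb. The ages did not overlap, although Lb3 approached La2. The log2 fold change was -0.92 in Ha vs Hb (SE 0.15, edgeR adjusted p = 0.00106) and -0.59 in La vs Lb (SE 0.18, edgeR adjusted p = 0.016), both short of the fold minimum.

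Compared per length, NOTCH2 was the leading receptor in every library. Its share of the summed FPKM of the receptors was 73.2%, 73.8% and 76.4% in Ha, 72.9%, 80.1% and 73.9% in Hb, 80.8%, 82.9% and 82.8% in La, and 76.3%, 68.1% and 72.2% in Lb. The sum itself was 96.8 ± 13.2 FPKM in Ha, 28.9 ± 7.71 in Hb, 141 ± 8.21 in La and 39.9 ± 4.07 in Lb (SD, n = 3). NOTCH4 had the lowest mean FPKM of the 10 genes in each group, at 1.79, 0.773, 2.09 and 0.537 in Ha, Hb, La and Lb.

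The ligands JAG1 and JAG2 are both of the Jagged family, and they moved in opposite directions with age. JAG1 (gene ID 100156773, chromosome 17, 19591248 to 19629659) was at 186, 201 and 199 CPM in Ha, 87.9, 78.3 and 52.5 in Hb, 176, 197 and 199 in La, and 93.4, 85.6 and 75.8 in Lb. All 30-day libraries lay above all 120-day libraries, and the breeds overlapped at each age. It fell by 1.42 on the log2 scale in Ha vs Hb (SE 0.20, edgeR adjusted p = 0.000525) and by 1.15 in La vs Lb (SE 0.11, edgeR adjusted p = 3.25e-05).

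JAG2 (gene ID 100522743, on a sequence not placed on a chromosome) was at 20.9, 24.2 and 18.0 CPM in Ha, 87.5, 57.2 and 87.1 in Hb, 13.7, 16.9 and 15.7 in La, and 59.5, 65.8 and 45.3 in Lb. Every 120-day library lay above every 30-day library. The log2 fold change was 1.88 in Ha vs Hb (SE 0.21, edgeR adjusted p = 0.000211) and 1.90 in La vs Lb (SE 0.17, edgeR adjusted p = 1.78e-05), and it was 1.78 in Ha vs Hb without Hb1. The spermatocyte and spermatid marker sums rose with the same ages, and their part in the result was not tested. Estimated counts of JAG2 were not whole in 6 of 12 libraries, so part of its reads may be shared with another feature.

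DLL4 (gene ID 100152163, chromosome 1, 130376720 to 130386411), the Delta-like ligand of sprouting endothelium, was at 17.7, 22.5 and 13.4 CPM in Ha, 11.9, 9.80 and 7.65 in Hb, 12.3, 16.8 and 16.2 in La, and 8.51, 12.3 and 9.34 in Lb. Ha and Hb did not overlap, while the highest library of Lb, Lb2, slightly exceeded the lowest of La, La1. The log2 fold change was -0.87 in Ha vs Hb (SE 0.26, edgeR adjusted p = 0.0194) and -0.57 in La vs Lb (SE 0.21, edgeR adjusted p = 0.0383), neither past the fold minimum. With a library left out, the edgeR adjusted p was 0.05 or more in 2 of 6 fits in Ha vs Hb, at up to 0.0771, and in 4 of 6 fits in La vs Lb, at up to 0.114. Without Ha3 or Hb1 the gene was called lower in Hb, at -1.04 and -1.03.

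**Figure D2:**
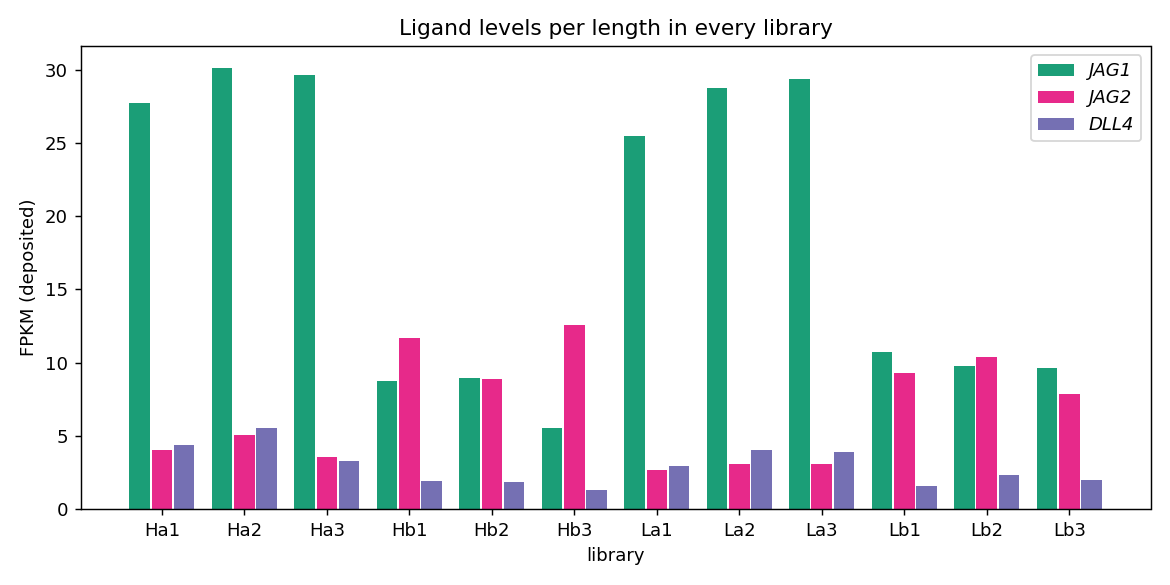
Deposited FPKM of the ligands JAG1, JAG2 and DLL4 in each of the 12 libraries, with 1 bar per gene and library and an axis that starts at 0. JAG1 is far above JAG2 in all 30-day libraries, and the bars of both genes are of like height in most 120-day libraries.

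The makeup of the ligand transcripts differed between the ages accordingly. JAG2 made up 11.2%, 12.5% and 9.82% of the summed FPKM of these ligands in Ha, 52.2%, 45.1% and 64.8% in Hb, 8.54%, 8.64% and 8.51% in La, and 43.0%, 46.1% and 40.3% in Lb. The shares did not overlap between the ages in either breed, and the share itself was not tested. In FPKM, JAG1 exceeded JAG2 in all 30-day libraries (29.2 ± 1.28 against 4.25 ± 0.773 in Ha and 27.9 ± 2.11 against 2.95 ± 0.260 in La, SD, n = 3). At 120 days the ranges of JAG1 and JAG2 overlapped, with 7.74 ± 1.93 against 11.06 ± 1.93 FPKM in Hb and 10.1 ± 0.582 against 9.17 ± 1.26 in Lb.

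The targets HES1, HEY1 and HEYL encode related repressors. HEYL (gene ID 100518256, chromosome 6, 95442655 to 95459597), known from vascular smooth muscle, was at 60.4, 64.9 and 74.8 CPM in Ha, 18.0, 17.7 and 18.0 in Hb, 51.2, 45.6 and 46.3 in La, and 32.0, 35.2 and 35.2 in Lb. None of the groups overlapped: Ha was highest, La and Lb followed, and Hb was lowest with its libraries almost equal. It fell by 1.90 on the log2 scale in Ha vs Hb (SE 0.14, edgeR adjusted p = 2.76e-05), while the log2 fold change in La vs Lb was -0.47 (SE 0.12, edgeR adjusted p = 0.00678).

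HEY1 (gene ID 100157952, chromosome 4, 56859640 to 56863807), known from endothelium, was at 26.8, 14.3 and 29.9 CPM in Ha, 6.84, 11.7 and 5.14 in Hb, 23.7, 32.2 and 24.4 in La, and 3.05, 4.80 and 4.46 in Lb. The ages did not overlap, though Ha2 lay close to Hb2. It fell by 1.58 on the log2 scale in Ha vs Hb (SE 0.38, edgeR adjusted p = 0.0079) and by 2.69 in La vs Lb (SE 0.23, edgeR adjusted p = 1.73e-05).

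HES1 (gene ID 100499567, chromosome 13, 131135970 to 131137865), a general Notch target, was the least counted gene, with estimated counts from 18 to 112. It was at 2.42, 3.57 and 3.26 CPM in Ha, 1.86, 0.882 and 1.19 in Hb, 3.99, 5.12 and 4.45 in La, and 2.13, 3.01 and 2.62 in Lb. The ages did not overlap within a breed. It fell by 1.24 on the log2 scale in Ha vs Hb (SE 0.40, edgeR adjusted p = 0.0252), and the log2 fold change in La vs Lb was -0.79 (SE 0.26, edgeR adjusted p = 0.026). The call in Ha vs Hb was lost without Ha2, Ha3, Hb2 or Hb3, with edgeR adjusted p of 0.0865, 0.069, 0.0517 and 0.0692, and the low counts limit its precision. In La vs Lb the edgeR adjusted p was 0.05 or more in 4 of 6 such fits, at up to 0.0849.

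**Figure D3:**
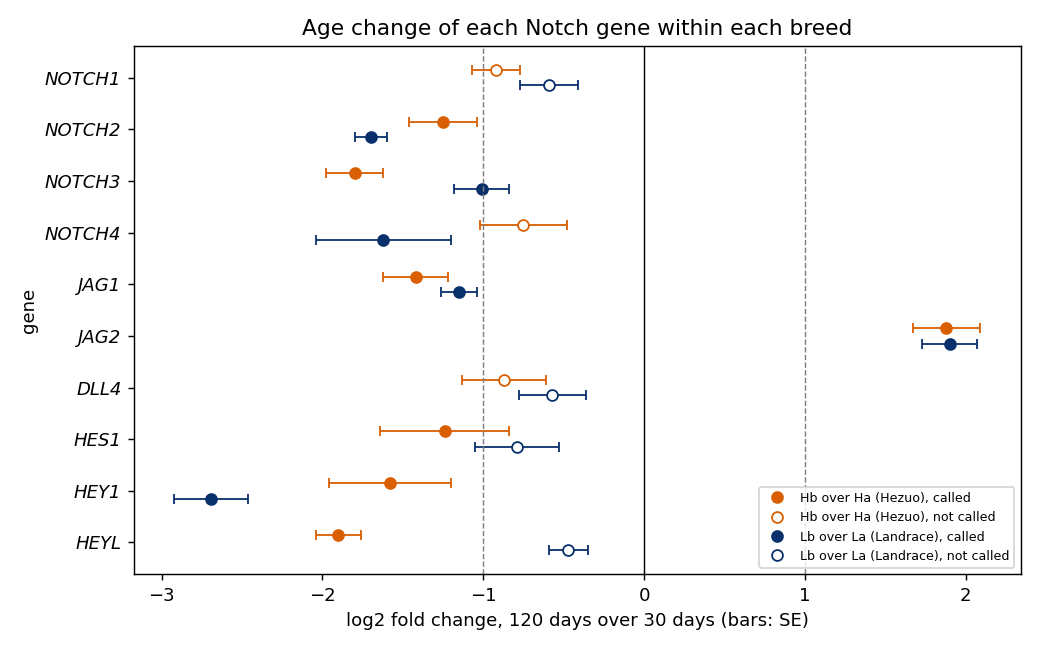
Log2 fold change from 30 to 120 days of each Notch gene in HZ (orange) and LC (blue), with bars for the SE, filled points for called genes and dashed lines at the fold minimum. JAG2 is the only gene of the 10 to the right of 0, at 1.88 and 1.90, and HEYL lies at -1.90 in HZ and -0.47 in LC.

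Groups did not overlap in CPM for 10 of 10 genes in Ha vs Hb, as for 76.1% of all tested genes, and for 9 of 10 in La vs Lb, as for 75.9%. In order of mean FPKM, NOTCH2 came first in every group. JAG1 followed in Ha, La and Lb. In Ha the next were HEYL and NOTCH3, whose ranges overlapped, then NOTCH1, HEY1, DLL4 and JAG2, each overlapping its neighbour, then HES1 and NOTCH4. In Hb, JAG2 and JAG1 overlapped behind NOTCH2, NOTCH1, HEYL, NOTCH3, HEY1 and DLL4 followed, each overlapping its neighbour, and HES1 and NOTCH4 overlapped at the end. In La, NOTCH3 and HEYL overlapped, as did NOTCH1 and HEY1, and HES1, DLL4 and JAG2 each overlapped the neighbour. In Lb, JAG1 and JAG2 overlapped, HEYL, NOTCH1 and NOTCH3 each overlapped the neighbour, HES1 and DLL4 overlapped, and HEY1 and NOTCH4 came last without overlap.

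The pairwise comparisons share libraries with each other. The age changes were compared between the breeds with the interaction of breed and age, (Lb over La) over (Hb over Ha). HEYL was the 1 gene of the 10 that was called, against 5.14% of 17332 tested genes, with a log2 value of 1.41 (SE 0.16, edgeR adjusted p = 0.00166), so that its age difference was larger in HZ. With the adjusted p alone HEYL was again the 1 gene of 10, beside 7.25% of all. The value ranged from 1.36 to 1.53 when each of the 12 libraries was left out, with edgeR adjusted p from 0.00153 to 0.00894. With library totals, which moved the median of all genes to 0.17, it was 1.57. Of the peritubular and stromal markers, 5 of 10 were called in the same direction (ACTA2, COL1A1, COL1A2, COL3A1 and PDGFRB), as were the pericyte markers CSPG4 and MCAM, 2 of 5, and the endothelial marker PECAM1, 1 of 7. The macrophage marker AIF1, 1 of 5, and the spermatogonial markers DAZL and KIT, 2 of 11, were also called in that direction, and the spermatid markers PRM1 and ACRV1, 2 of 10, in the opposite direction. The part of these markers in the HEYL result was not tested. The interaction value of NOTCH3 was 0.78 (SE 0.26, edgeR adjusted p = 0.0878) and that of HEY1 -1.13 (SE 0.47, edgeR adjusted p = 0.171).

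The breeds were compared at each age. In Ha vs La, edgeR called 0 of the 10 genes, where 7.62% of 15648 tested genes were called, and DESeq2 and limma on log2(FPKM + 1) also called 0. At an unadjusted p under 0.05, 5 of the 10 passed in edgeR (NOTCH1, NOTCH2, JAG2, HES1 and HEYL), beside 36.4% of all. With the adjusted p alone 3 passed, beside 21.3% of all: NOTCH2 at 0.71 (SE 0.12, edgeR adjusted p = 0.00693), NOTCH1 at 0.32 (SE 0.09, edgeR adjusted p = 0.0485) and HEYL at -0.49 (SE 0.10, edgeR adjusted p = 0.016). Groups did not overlap for 5 of 10 genes, as for 41.8% of all. With a library left out, the edgeR adjusted p was 0.05 or more in 5 of 6 fits for NOTCH1, at up to 0.147, in 2 of 6 for HEYL, at up to 0.0656, and in 0 of 6 for NOTCH2. NOTCH2 was thus higher in every La library than in any Ha library, and HEYL was lower. The Sertoli markers AMH, FSHR and INHA, 3 of 8, and the Leydig marker HSD17B3, 1 of 7, were called higher in La. The spermatogonial marker DAZL, 1 of 10 tested, and 4 of 8 spermatocyte markers were called lower. Of the endothelial, pericyte, stromal and macrophage markers, 0 were called. The part of these markers in the result was not tested.

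In Hb vs Lb, edgeR called 0 of the 10 genes, where 3.85% of 16311 tested genes were called, and DESeq2 and limma on log2(FPKM + 1) called 0 as well. At an unadjusted p under 0.05, 5 of 10 passed in edgeR (NOTCH1, NOTCH3, HES1, HEY1 and HEYL), beside 25.5% of all. With the adjusted p alone HEYL passed, at 0.98 (SE 0.15, edgeR adjusted p = 0.0183), beside 5.47% of all. Groups did not overlap for 5 of 10 genes, as for 32.3% of all. With library totals the HEYL value was 1.04 and with log2(FPKM + 0.1) it was 1.07, which put it past the fold minimum. The edgeR adjusted p was 0.05 or more without Hb3, Lb1, Lb2 or Lb3, at up to 0.0775. Of the peritubular and stromal markers 5 of 10 were called higher in Lb, with a list median of 1.66, as were the pericyte markers CSPG4 and MCAM, 2 of 5, with a list median of 1.51, and PECAM1 of the 7 endothelial markers. The macrophage marker AIF1, 1 of 5, was also called higher, with a list median of 1.22, and the spermatid marker AKAP4, 1 of 10, was called lower. The Leydig list had the largest median, 1.95, with 0 of 7 called. The part of these markers in the result was not tested. The interval of the difference for HES1 was wide, from 0.24 to 1.84 on the log2 scale around 1.04. It uses a normal approximation on the SE, which understates the width with 3 libraries a group. With a library left out, the edgeR adjusted p of HES1 ranged from 0.135 to 0.35.

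The other genes of the pathway were described from a list of 50, of which 49 were in the table and 45 were tested in each comparison. In Ha vs Hb 8 of 45 were called lower, beside 23.2% of all tested genes, and 7 higher, beside 28.2%. In La vs Lb 14 of 45 were called lower, beside 20.1% of all, and 5 higher, beside 27.5%. The median log2 fold changes of the list were -0.36 and -0.44, beside -0.02 and 0.01 for all tested genes. Without Hb1 the log2 fold changes in Ha vs Hb were 1.62 for SPEN, 2.22 for CIR1, 1.44 for NCOR1, 2.21 for APH1B, -1.76 for LFNG, -1.82 for MFNG, -1.05 for APH1A and -1.83 for DLL1. Of the genes for sugar changes on the receptor, 3 of 5 were called lower in each age comparison, namely the Fringe enzymes LFNG, MFNG and RFNG. RFNG had at most 80.5 estimated counts and its calls were not stable, with adjusted p over the alternatives of up to 0.0819 for HZ and 0.103 for LC. LFNG was at 38.4, 31.8 and 35.4 CPM in Ha and 10.3, 11.6 and 9.03 in Hb. It fell by 1.77 on the log2 scale (SE 0.17, edgeR adjusted p = 9.21e-05). MFNG fell by 1.91 between Ha and Hb (SE 0.20) and by 1.61 between La and Lb (SE 0.19).

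Among the corepressors that act with RBPJ or its partners, 3 of 4 were called higher in Hb and 2 of 4 were called higher in Lb. SPEN rose in Ha vs Hb by 1.65 on the log2 scale (SE 0.15) and in La vs Lb by 1.22 (SE 0.11), and CIR1 rose by 2.25 (SE 0.21) and 1.71 (SE 0.19). NCOR1 rose by 1.51 in Ha vs Hb (SE 0.14). For log2(FPKM + 1), NCOR1 in Ha vs Hb was at 0.90 and SPEN in La vs Lb at 0.84, short of the fold minimum, and SPEN was at 0.91 for log2(FPKM + 0.1).

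Of the 9 genes for cleavage, APH1A and APH1B encode alternative subunits of gamma-secretase. APH1B was at 23.8, 24.8 and 20.0 CPM in Ha, 190, 87.2 and 124 in Hb, 17.8, 24.0 and 22.1 in La, and 84.6, 72.6 and 66.4 in Lb, and every 120-day library lay above every 30-day library. It rose by 2.55 on the log2 scale in Ha vs Hb (SE 0.29) and by 1.82 in La vs Lb (SE 0.15), whereas APH1A fell by 1.10 in Ha vs Hb (SE 0.14). Of 4 other ligands tested, DLL1 fell by 1.95 in Ha vs Hb (SE 0.40) but was short of the fold minimum for log2(FPKM + 1), at -0.74, and 3 of 4 were called lower in La vs Lb, with DLL3 at -1.15 (SE 0.12). NRARP, a target that feeds back on the pathway, was at 3.05, 2.57 and 2.94 CPM in La and 18.7, 14.4 and 15.5 in Lb. It rose by 2.52 on the log2 scale (SE 0.20, edgeR adjusted p = 1.08e-05), the opposite direction from HES1, HEY1 and HEYL, and its value in Ha vs Hb, looked up after that was seen, was a 4.58-fold rise (edgeR adjusted p = 0.00074). Of 4 other HES and HEY genes tested, HES2 was the 1 called in Ha vs Hb, and it was higher in Hb. HEY2 and HES6 were called in La vs Lb, both lower in Lb. HEY2 fell by 2.59 in La vs Lb (SE 0.22), but it was not called in Ha vs Hb, where the groups overlapped. In La vs Lb the coactivator MAML2 fell by 1.14 (SE 0.13) and the ubiquitin ligase DTX2 rose by 1.08 (SE 0.12). The DTX2 call was lost with library totals, at 0.91, and for log2(FPKM + 1) and log2(FPKM + 0.1), at 0.64 and 0.73, and the MAML2 call was lost for log2(FPKM + 1), at -0.90. The RBPJ partner SNW1 rose by 1.04 in Ha vs Hb (SE 0.14), near the fold minimum, and was at 0.98 without Hb1, 0.99 without Hb3, 0.72 with library totals, 0.51 for log2(FPKM + 1) and 0.53 for log2(FPKM + 0.1), short of it each time.

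Between the breeds, 3 of 45 of these genes were called at 30 days, beside 7.62% of all tested genes, and 2 of 45 at 120 days, beside 3.85%. DLL3 was at 21.7, 33.2 and 38.2 CPM in Ha and 72.2, 85.8 and 77.3 in La. Its log2 fold change was 1.34 (SE 0.19, edgeR adjusted p = 0.00412), and that of HEY2 was 1.38 (SE 0.26, edgeR adjusted p = 0.0105). The HEY2 call was lost with all 12 libraries in the fit, where its edgeR adjusted p was 0.0892. In Hb vs Lb, NUMBL, related to the Notch inhibitor NUMB, was at 1.59 (SE 0.30, edgeR adjusted p = 0.028). This call was sensitive to single libraries and was lost without Hb1, Hb3, Lb1, Lb2 or Lb3, at edgeR adjusted p of 0.0511, 0.0915, 0.0544, 0.0751 and 0.0691. In the interaction 0 of 45 were called by edgeR, beside 5.14% of all, and 1 by DESeq2.

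The genes most like each Notch gene over the 12 libraries were found by the root-mean-square difference of centred log2 CPM among 15016 genes. Nearest to JAG2 were TNKS (0.117), HGS (0.127) and PPME1 (0.129), and nearest to JAG1 were HIKESHI (0.123), PSMD10 (0.127) and ALG12 (0.139). Nearest to NOTCH2 were ALPK1 (0.135), BCAR3 (0.140) and KHNYN (0.141), to NOTCH3 ATP5G3 (0.141), STARD8 (0.151) and TMEM63B (0.153), and to NOTCH1 MTSS1 (0.148), EHBP1L1 (0.150) and MTMR8 (0.156). For HEYL they were IGFBP7 (0.158), RASSF4 (0.172) and VCL (0.191). IGFBP7, with mean levels of 279, 73.3, 224 and 134 CPM in Ha, Hb, La and Lb, had the order of HEYL across the groups. DLL4 was nearest to NFE2L2 (0.168), ADAM19 (0.183) and NFE2L1 (0.188), and HES1 to RHOC (0.170), TRAF3IP2 (0.215) and PLA2G4A (0.245). The differences were larger for NOTCH4, with OPRK1 (0.329), WSCD1 (0.348) and AGAP3 (0.365), and for HEY1, with KLHDC8B (0.360), GPRASP2 (0.363) and NDRG2 (0.380).

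Annotated lncRNA genes lay within 10 kb of NOTCH2, NOTCH4 and HES1. LOC102157581 lies inside the span of NOTCH4 (chromosome 7, 24232784 to 24233930), and its counts were 4, 3 and 4 in Ha, 38, 53 and 21 in Hb, 7, 4 and 3 in La, and 22, 21 and 39 in Lb. It was thus low at 30 days and higher in all 120-day libraries, the reverse of NOTCH4, and the strand used in counting is not given in the sources used here. LOC102164131, which ends 391 bases from HES1, had counts of 83, 75 and 30 in Ha, 15, 30 and 27 in Hb, 78, 54 and 53 in La, and 37, 19 and 32 in Lb. The neighbours of NOTCH2, LOC110260433 and LOC102160224, had at most 10 counts in any library. These lncRNA values were not tested.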

How the data were processed

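Testis RNA of 12 boars in 4 groups of 3 was sequenced by the authors after removal of ribosomal RNA, and strand was marked with dUTP in the second cDNA strand. Reads were cleaned with fastp 0.18.0, freed of ribosomal reads with Bowtie2 2.2.8, aligned to Sscrofa11.1 with HISAT2 2.1.0 and assembled with StringTie 1.3.4, per the submitters' processing notes and the study's methods. The deposited tables hold estimated counts, which need not be whole, and FPKM, both made by the authors. The study's methods name StringTie for the FPKM. The tool that made the estimated counts and its strand setting are not given in the sources used here.

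Groups were taken from the sample labels. Estimated counts of all coding genes were rounded, filtered with filterByExpr (minimum count 10), scaled by TMM and tested with edgeR 4.0.16 (quasi-likelihood test, two-sided, Benjamini-Hochberg adjustment over all genes tested) on R 4.3.3. Each comparison of 2 groups used their 6 libraries and the interaction all 12. The standard error is the absolute log2 fold change divided by the root of F. CPM came from the unrounded counts and TMM factors. Libraries of a group differed by more than sampling noise, so none was counted as a repeat. With 3 libraries a group, the low-count genes are imprecise. The procedure was tested on simulated counts with 200 genes changed 3-fold. It recovered 58% of them for Ha vs Hb, 72.5% for La vs Lb, 76.5% for Ha vs La, 57.5% for Hb vs Lb and 42% for the interaction. False calls ranged from 6 to 15 genes. A gene that was not called can thus still have changed. Alternatives tried were DESeq2 1.42.0, limma 3.58.1 on log2(FPKM + 1) and log2(FPKM + 0.1), library totals, other filters, all libraries in a fit, no fold minimum, a replicate block, each library left out, and medians of FPKM, which by construction lie within 1 SD of the mean and so tested nothing.

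Named were all 10 Notch genes, in each age comparison up to 5 called pathway genes in each direction with the smallest adjusted p and no overlap of groups, and called pathway genes between breeds or in the interaction. Not every gene that met these rules is named. For likeness, the 3 nearest genes with a symbol and a mean of at least 1 CPM were named, using log2 CPM (prior count 2). Of each marker list the most abundant gene and every marker at 0 were named. The Notch genes and the lists were chosen with earlier results of these data known. Gene positions come from the RefSeq table for Sscrofa11.1. The lncRNA transcript annotation was not used.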

Additional observations from a re-analysis of the deposited data

Results flagged for a closer look

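The difference between the breeds in the age change was past an edgeR adjusted p of 0.05 for 3 pathway genes. For HEYL the interaction of breed and age was 1.41 on the log2 scale (edgeR adjusted p = 0.00166), from -1.90 in HZ and -0.47 in LC. For the coactivator MAML2 it was -0.99 (edgeR adjusted p = 0.0245), from -0.17 in HZ and -1.14 in LC. For the protease ADAM17 it was -0.70 (edgeR adjusted p = 0.048), from 0.05 and -0.64. With edgeR on all 12 libraries MAML2 and ADAM17 did not reach the fold minimum, and they were named after their values were seen. MAML2 was called in DESeq2, at -1.03, and in edgeR without Ha3, Hb1 or La1, at -1.09, -1.07 and -1.01. Over the alternatives, the adjusted p ranged from 2.92e-12 to 0.00894 for HEYL, from 0.000416 to 0.118 for MAML2 and from 0.00956 to 0.126 for ADAM17. With a library left out, it was 0.05 or more in 7 of 12 fits for MAML2, in 11 of 12 for ADAM17 and in 0 of 12 for HEYL.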

How the results depend on the processing

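Of the 10 Notch genes, 7 were called in Ha vs Hb and 6 to 10 under the alternatives, and 6 were called in La vs Lb and 5 to 10 under the alternatives. Over all genes, Ha vs Hb had 8510 calls, 6647 with log2(FPKM + 1) and 11394 with the adjusted p alone. For La vs Lb these counts were 7926, 5586 and 11639. No Notch gene changed direction in these comparisons. With the adjusted p alone, 10 were called in La vs Lb, 3 at 30 days between the breeds and 1 at 120 days, and 1 was called in Hb vs Lb with library totals and with log2(FPKM + 0.1). For the pathway list, the adjusted p alone gave 26 genes in HZ and 35 in LC with age, 9 in Ha vs La and 2 in the interaction. In Hb vs Lb, where 2 were called, log2(FPKM + 1) and log2(FPKM + 0.1) gave 1 each, and DESeq2 gave 1 in the interaction. Leaving out each library gave 3 to 5 pathway genes at 30 days between the breeds, 0 to 5 at 120 days and 0 to 2 in the interaction.

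Over all genes, Ha vs La had 1192 calls, 507 with log2(FPKM + 1) and 3333 with the adjusted p alone. Hb vs Lb had 628, against 1224 with DESeq2, 1227 with all 12 libraries in the fit and 97 (without Lb2) to 1029 (without Hb2) when libraries were left out. The interaction had 890, against 1378 with DESeq2, 1365 with log2(FPKM + 0.1) and 437 (without Ha1) to 1242 (without Hb2). Higher genes made up 68.4% of its calls, and 81.6% with library totals. In La vs Lb they made up 57.7%, and 46.1% with log2(FPKM + 0.1).

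With the replicate number as a block, Ha vs Hb had 6 Notch genes called, beside 8430 of 16548 tested genes. HES1 was lost at an edgeR adjusted p of 0.0593. Under the block Hb vs Lb had 1 pathway gene and 154 genes in all. The replicate block moved no other of these counts by over 1.5 times. Same-numbered libraries deviated from their group means with correlations from -0.0222 to 0.0527. No shared deviation was thus seen, but these values cannot settle whether the numbers stand for a pairing.

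The signs that turned belonged to values that were not called. In Ha vs La, leaving out a library gave -0.08 to 0.37 for HEY1 and -0.07 to 0.04 for JAG1, and in Hb vs Lb -0.07 to 0.22 for DLL4. The interaction of JAG2, 0.01, was -0.04 with DESeq2, -0.00 with no filter and with the strict filter, -0.01 with the replicate block and -0.17 to 0.16 without a library. The cause of these differences was not tested.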
